A study of Mus musculus with 9 samples.

Results

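The genes described here are 47 mouse genes of DNA damage sensing, checkpoint signalling and the first steps of repair. They were chosen by symbol, and each symbol was matched to the Ensembl identifier of its row in a count table. All 47 were found among 39179 gene rows, and all 47 passed the filter on low counts. In cells, broken or stalled DNA is recognised by sensor complexes that recruit 3 large kinases, ATM, ATR and DNA-PKcs. These kinases mark the chromatin around the damage and activate CHK1 and CHK2, which hold the cell cycle while homologous recombination or end joining repairs the lesion. Blood stem cells depend on this network, since unrepaired damage is passed on to all blood lineages, and anthracyclines, used in leukaemia treatment, act by trapping topoisomerase II on broken DNA.

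RNA-seq was made from LSK cells, a bone marrow fraction that lacks mature lineage markers, carries Sca1 and cKit, and contains blood stem cells together with early progenitors. The series title joins Dnmt3a mutation with weakened sensing of DNA damage and resistance to anthracyclines. No drug or radiation is named in the labels, so all levels are those of cells without a labelled DNA damaging treatment. All 9 libraries came from C57BL/6 mice aged 6 months that had received 5 intraperitoneal injections of poly(I:C), the interferon inducer that activates the Mx1-Cre recombinase.

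The wild-type group (wt_Mx+, Dnmt3a+/+, with Mx1-Cre) had 3 libraries. The mutant group (cKI_Mx+, Dnmt3a+/m, with Mx1-Cre) had 4 libraries, named mutant_824, mutant_827, mutant_829 and mutant_830. It carries a conditional knock-in at the endogenous locus, and Mx1-Cre is active in interferon-responsive tissues, including bone marrow, and not only in LSK cells. The Cre-negative group (cKI_Cre-) had 2 libraries, named cre_negative_780 and cre_negative_819. Its genotype is given as Dnmt3a+/- in the design text, so the allele and the missing Cre cannot be told apart in any comparison with wild type. Titles carry 1 number per library, and whether each library is 1 animal is not stated, so p-values measure the spread between these libraries.

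Gene counts per library ranged from 47792306 to 58405879. Levels are given as CPM, the counts of a gene relative to the scaled total of its library, always with the libraries of a group in the same order. Dnmt3a, the targeted gene, stood at 173.5, 148 and 156.5 CPM in the wild-type libraries, and at 153 to 171 CPM in the mutant libraries. It stood at 118 and 93.5 CPM in cre_negative_780 and cre_negative_819, below all others. Counts per gene do not separate the mutant transcript from the normal one. Of the LSK markers, Kit (369 to 539 CPM) and Cd34 (904 to 1498 CPM) were high in all 9 libraries, and the levels of markers of other cells are given further on. Library cre_negative_819 stood apart: Car1, an erythroid carbonic anhydrase, was at 1442 CPM there and at 55.1 to 153 CPM elsewhere. Procr, which encodes the stem cell surface receptor EPCR, was at 11.7 CPM in cre_negative_819 and at 72.9 CPM in cre_negative_780. In such bulk libraries, fewer cells of a type and less RNA per cell cannot be told apart.

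Every one of the 47 genes was expressed in every library, with between 160 and 32474 counts. Mean levels over the 9 libraries ran from 5.09 CPM for Lig4, the ligase of end joining, to 531 CPM for Smc1a, a cohesin subunit that is phosphorylated by ATM. Of the 47, 21 averaged at least 100 CPM and 4 averaged under 20 CPM. On a scale per kilobase of exon, Smc1a (92.1 CPM per kb), Parp1 (85.6), Tipin (72.8), Rpa1 (48.5) and Topbp1 (44.4) led. Parp1 encodes the poly(ADP-ribose) polymerase that binds DNA breaks early, and the other genes of that group act at replication forks or on sister chromatids. Lig4 (0.979 CPM per kb) and the ubiquitin ligase gene Rnf8 (0.915 CPM per kb) were lowest on this scale, which uses the union of all annotated exons and is therefore low for genes with long retained introns. The genes lie on 18 chromosomes, with 8 of them, among them Atm, Atr, Chek1 and H2afx, on chromosome 9.

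Libraries of the same genotype differed widely in these genes. Relative to each gene's mean over the 9 libraries, the median of the 47 genes on the log2 scale was -0.09, 0.25 and 0.04 in the wild-type libraries. It was -0.02, -0.03, -0.09 and -0.11 in mutant_824, mutant_827, mutant_829 and mutant_830, and -0.20 and 0.27 in cre_negative_780 and cre_negative_819. The 4 mutant libraries thus lay close together, below the wild-type library at 0.04, while wild type and Cre-negative each held 1 high library. Against the wild-type library at -0.09, mutant_824 and mutant_827 lay above, mutant_829 lay level and mutant_830 lay below. For 18 of the 47 genes the highest of all 9 libraries was cre_negative_819, and for 21 the lowest was cre_negative_780, while no mutant library was the highest for more than 2 genes.

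**Figure D1:**
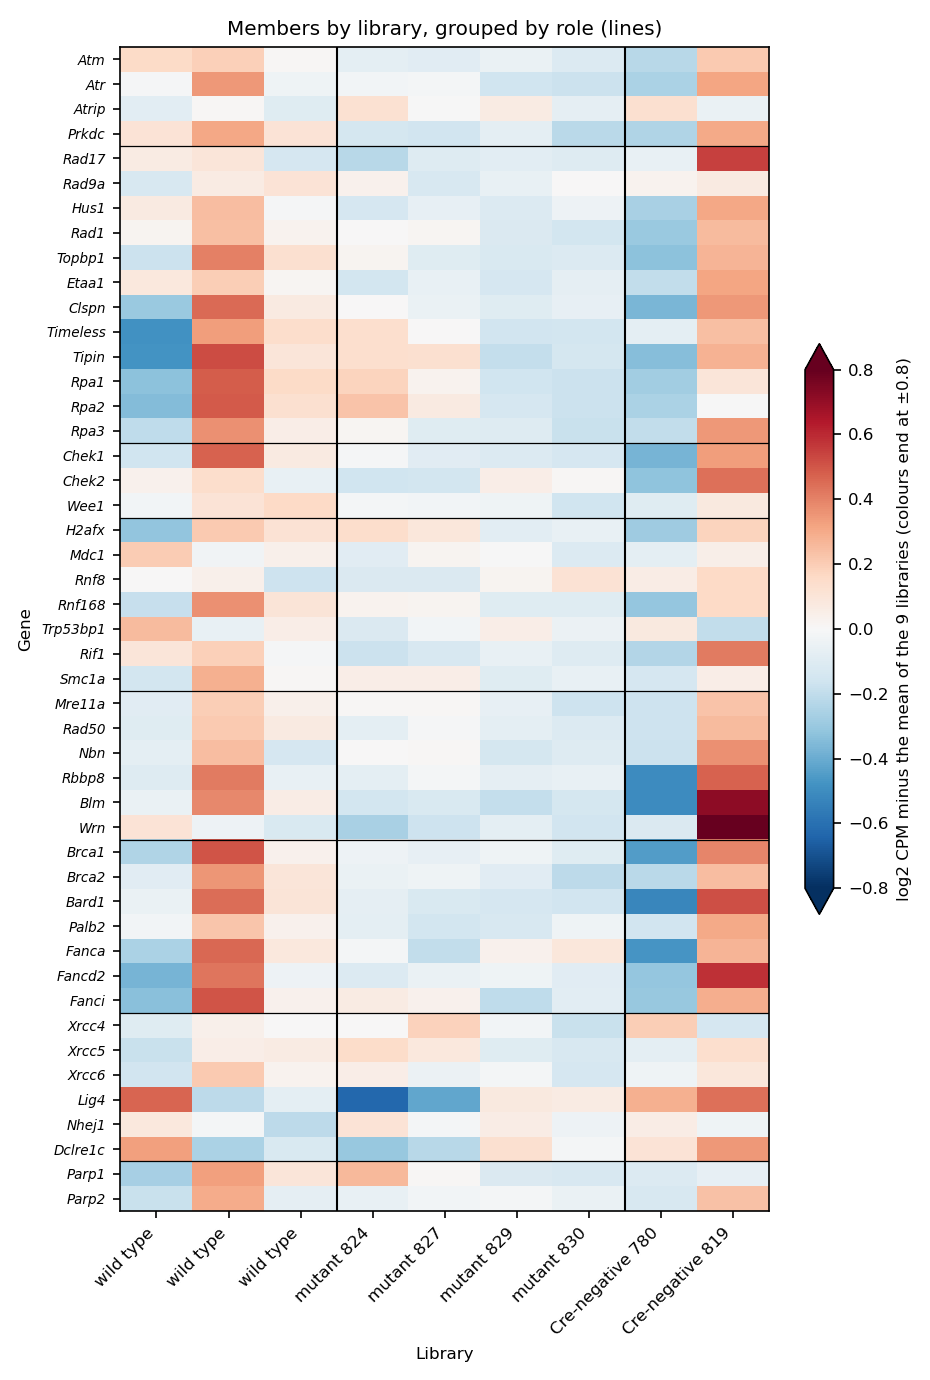
Level of each of the 47 genes (rows, grouped by role) in each of the 9 libraries (columns, grouped by genotype), as log2 CPM minus the mean of the 9 libraries; red is above and blue below that mean. The column of cre_negative_819 is red over most rows, that of cre_negative_780 is blue, the wild-type columns differ among themselves, and the 4 mutant columns are pale.

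Between the 2 Cre-negative libraries, 43 of 47 genes were higher in cre_negative_819, by a median of 0.46 on the log2 scale. Over 9697 genes at 10 CPM or more, 57.5% were higher in cre_negative_819, with a median of 0.09. Bard1, the partner of Brca1 in a ubiquitin ligase, was at 81.6 CPM in cre_negative_819 and 39.8 CPM in cre_negative_780. Of the 8 roles, the end joining genes had the lowest median SD within groups, 0.141 (log2, 6 genes), and the 7 BRCA and Fanconi genes the highest, 0.307, beside 0.24 for the 12 genes of ATR activation. The 47 genes had a median SD of 0.20, beside 0.1804 for 10606 genes in the same range of mean CPM.

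Not all of the genes followed this order. Trp53bp1, which encodes the end-protecting chromatin reader 53BP1, was higher in cre_negative_780 (157 CPM) than in cre_negative_819 (130 CPM). Atrip, Xrcc4 and Nhej1 were likewise higher in cre_negative_780. Wrn, a RecQ helicase gene, was highest in cre_negative_819, at 337 CPM, while its other 8 libraries lay between 159 and 205 CPM.

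Genes of the cell cycle showed a similar order of libraries. The median of 34 S phase genes, such as those of the MCM helicase, was -0.32, 0.43 and 0.10 in the wild-type libraries. It ranged from -0.12 to 0.09 in the mutant libraries and was -0.30 and 0.24 in cre_negative_780 and cre_negative_819. The median of 25 G2 and M phase genes was -0.22, 0.38 and -0.02 in wild type, -0.08 to -0.02 in the mutant, and -0.36 and 0.44 in the Cre-negative libraries. The p53 list (Trp53 and 29 genes chosen as its targets, 30 in all) stayed between -0.05 and 0.11 in all 9 libraries, with both Cre-negative libraries (0.09 and 0.11) above the other 7. The share of reads assigned to no gene was 23.1%, 13.7% and 17.1% in the wild-type libraries, 13.6%, 15.7%, 19.4% and 18.5% in mutant_824, mutant_827, mutant_829 and mutant_830, and 18.2% and 17.8% in cre_negative_780 and cre_negative_819. Within wild type and within the mutant, libraries with a lower share mostly had a higher median of the 47 genes. Its part in the order of libraries was not tested.

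**Figure D2:**
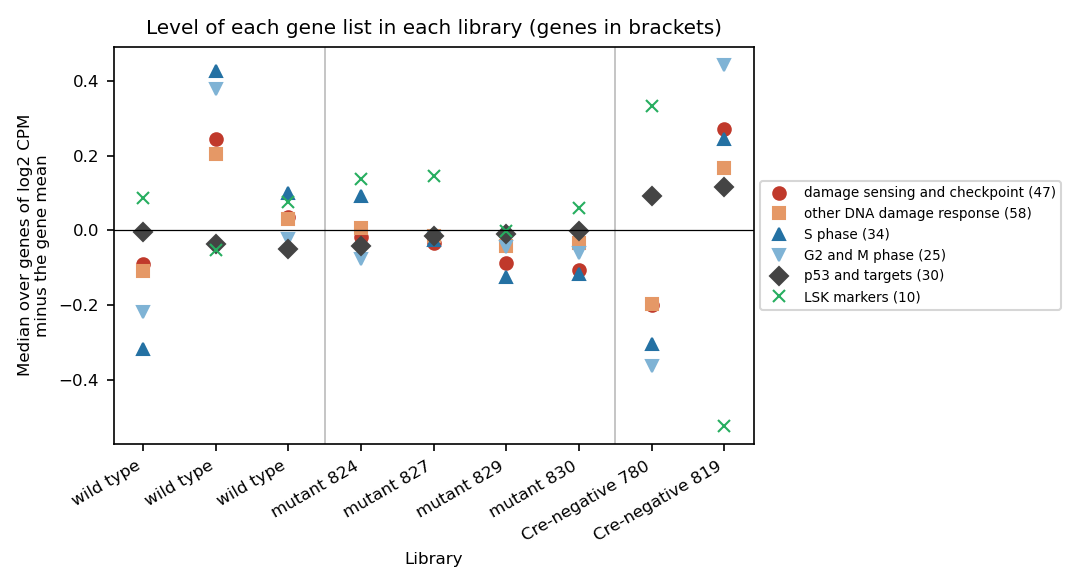
Median over the genes of each list of log2 CPM minus the gene's mean (vertical axis) in each library (horizontal axis). The 47 genes (red circles) follow the S phase and the G2 and M phase genes (triangles) up in cre_negative_819 and down in cre_negative_780, and also differ among the wild-type libraries, while the p53 list (dark diamonds) stays between -0.05 and 0.11.

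The promoters of these genes were searched because many of the genes moved together with S phase genes. RefSeq promoters on GRCm38.p6, from 250 bases before to 50 bases after the start, matched 36 of the 47 genes. Some of these windows, such as those of Chek1, Timeless and Xrcc6, lay inside the gene as annotated, so its outer start was not searched. An E2F-type motif was taken as the letters TTCCCGC on either strand, and equally as the letters TTGGCGC, as the letters TTGCCGC, or as the letters TTCGCGC. It was present in 19 of the 36 (52.8%). It was also present in 18 of 27 S phase promoters (66.7%), in 19 of 41 promoters of other damage response genes (46.3%) and in 2936 of 27025 promoters of all genes (10.9%). The set of all genes was not limited to expressed genes or matched in base content. The box CCAAT, on either strand, was present in 19 of the 36 and in 41.1% of all promoters, and the form GCGCCAA can share letters with it. The 19 genes with the E2F-type motif had a median SD within groups of 0.24 on the log2 scale (0.0877 to 0.373), and the 17 without it 0.181 (0.0848 to 0.306), so the ranges overlapped. A match of letters is a description and says nothing of binding. The promoters of a checkpoint kinase gene, a recombination gene and an apical kinase gene with the motif are shown beside that of Trp53bp1, which had neither motif. From the first to the second wild-type library, the median log2 difference of the 19 genes with the motif was 0.44 (-0.68 to 0.84). That of the 17 genes without it was 0.23 (-0.58 to 0.82). From cre_negative_780 to cre_negative_819 the medians were 0.47 (-0.33 to 1.21) with the motif and 0.38 (-0.27 to 0.74) without it. Whether the motif goes with the order of libraries was not tested. Capitals mark the E2F-type motif, which begins 44, 22 and 16 bases into the transcribed side for Chek1, Brca1 and Atm, counting the RefSeq start as 1. For Chek1 this start lies inside the gene as annotated, and the outer start is not in the sequence shown. All are written on the gene's own strand, which is the minus strand for the 4 genes, and lie at chr9:36726609-36726908 for Chek1, chr11:101551906-101552205 for Brca1, chr9:53536622-53536921 for Atm and chr2:121271358-121271657 for Trp53bp1.
Chek1: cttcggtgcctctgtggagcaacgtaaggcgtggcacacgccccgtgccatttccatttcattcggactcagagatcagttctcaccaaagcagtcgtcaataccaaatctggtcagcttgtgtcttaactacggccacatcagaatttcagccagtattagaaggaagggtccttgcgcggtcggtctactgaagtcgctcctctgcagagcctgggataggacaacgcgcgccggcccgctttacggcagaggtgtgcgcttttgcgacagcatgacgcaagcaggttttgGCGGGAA
Brca1: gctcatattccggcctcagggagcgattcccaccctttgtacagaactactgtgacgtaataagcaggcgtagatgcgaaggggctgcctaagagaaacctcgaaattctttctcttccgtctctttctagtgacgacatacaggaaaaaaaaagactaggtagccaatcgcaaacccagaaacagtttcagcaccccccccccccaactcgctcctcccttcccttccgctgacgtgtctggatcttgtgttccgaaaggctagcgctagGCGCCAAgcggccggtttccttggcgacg
Atm: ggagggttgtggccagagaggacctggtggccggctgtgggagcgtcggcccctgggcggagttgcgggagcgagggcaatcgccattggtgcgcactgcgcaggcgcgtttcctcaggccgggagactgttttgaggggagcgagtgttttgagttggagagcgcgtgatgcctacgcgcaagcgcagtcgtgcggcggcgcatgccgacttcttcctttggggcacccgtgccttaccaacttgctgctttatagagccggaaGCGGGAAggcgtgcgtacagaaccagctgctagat
Trp53bp1: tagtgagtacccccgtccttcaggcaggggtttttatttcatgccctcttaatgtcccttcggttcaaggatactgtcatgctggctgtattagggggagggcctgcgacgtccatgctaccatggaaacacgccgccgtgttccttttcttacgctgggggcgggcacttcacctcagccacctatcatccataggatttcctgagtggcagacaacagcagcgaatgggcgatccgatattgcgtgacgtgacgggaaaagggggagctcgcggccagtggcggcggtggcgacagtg

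The comparison of mutant with wild type addresses whether these genes are set differently in LSK cells with the Dnmt3a mutation. No gene of the 47 passed in edgeR's quasi-likelihood test (Benjamini-Hochberg adjusted p under 0.05 over all genes), and neither did any other gene (0% of 18576). The smallest adjusted p among the 47 was 0.998. Differences were small and mostly negative: 41 of 47 had a negative log2 fold change, against 54.3% of all genes tested, with a median of -0.14 and a range of -0.33 to 0.09. The median of all genes tested was -0.02, and that of the 9697 genes at 10 CPM or more was -0.04, with 60.8% negative. At an unadjusted p under 0.05, 1 of the 47 was lower (1.31% of all genes) and 0 were higher (1.86% of all genes). For 9 of the 47, every mutant library lay below every wild-type library (4.15% of all genes), and for 0 of them every mutant library lay above (4.17% of all genes). The 9 were Prkdc, Bard1, Blm, Rif1, Etaa1, Atm, Hus1, Palb2 and Rad1.

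The median rested on 1 wild-type library. With each wild-type library left out in turn, the median was -0.18, -0.02 and -0.14, and the number of negative genes fell to 25 in the second case. With the level of the S phase list as a covariate it was -0.04, with 30 negative, beside 50.9% of all genes. Under the other settings and left-out libraries the median lay between -0.18 and -0.11.

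**Figure D3:**
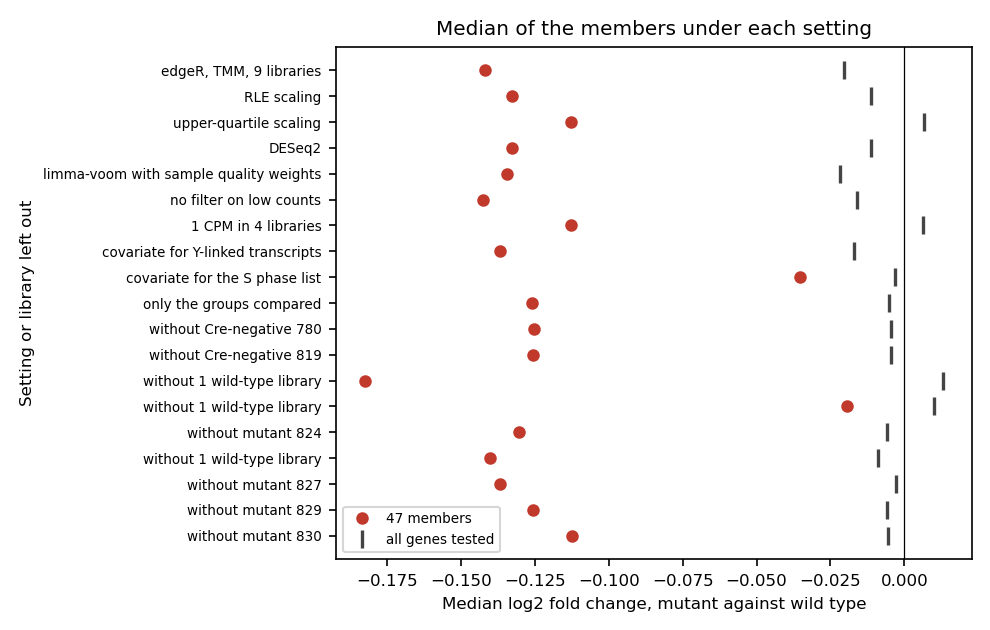
Median log2 fold change of mutant against wild type (horizontal axis) under each setting or with each library left out (vertical axis), for the 47 genes (red circles) and all genes tested (dark bars). The circles lie between -0.18 and -0.11 except with 1 of the wild-type libraries left out (-0.02) and with the S phase covariate (-0.04).

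Among the apical kinases, Prkdc differed most from wild type. Prkdc encodes the catalytic subunit of DNA-dependent protein kinase, which holds broken ends for joining (ENSMUSG00000022672, chr16:15637866-15842235, GRCm38, plus strand, 86 exon blocks). It stood at 181, 209 and 181.5 CPM in the wild-type libraries (191 ± 15.9, SD, n = 3), and at 152.5, 151, 160 and 145 CPM in mutant_824, mutant_827, mutant_829 and mutant_830 (152 ± 6.02, SD, n = 4). Every mutant library lay below every wild-type library, and the Cre-negative libraries, at 142.5 and 208 CPM, spanned both groups. The log2 fold change was -0.33 (SE 0.12, interval at 95% -0.60 to -0.05) with an unadjusted p = 0.0254 and an adjusted p = 0.998 in edgeR. Over 18 alternative settings it ranged from -0.34 to -0.25, including -0.26 with the S phase covariate. Its adjusted p ranged from 0.159 to 1 over these settings, and its unadjusted p was under 0.05 in 14 of them.

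Atm, the kinase gene that answers to double-strand breaks (ENSMUSG00000034218, chr9:53439149-53536740, minus strand), stood at 277, 285 and 251.1 CPM in wild type and at 236, 234, 240 and 232 CPM in the mutant. The groups did not overlap, by a margin of 251.1 against 240 CPM, and the Cre-negative libraries lay outside both, at 214.5 and 288 CPM. Its log2 fold change was -0.20 (SE 0.11, edgeR adjusted p = 0.998). Atr, the kinase gene for stalled forks, stood at 206, 264 and 202.5 CPM in wild type and at 204, 206, 186 and 184 CPM in the mutant, so its groups overlapped (log2 fold change -0.20, SE 0.15). Atrip, which brings ATR to single-stranded DNA, was the gene with the highest value of the 47, at 0.09 (SE 0.10). A share of 16.04% of its exon bases is also annotated to Trex1 on the same strand, so reads there are not assigned with certainty.

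**Figure D4:**
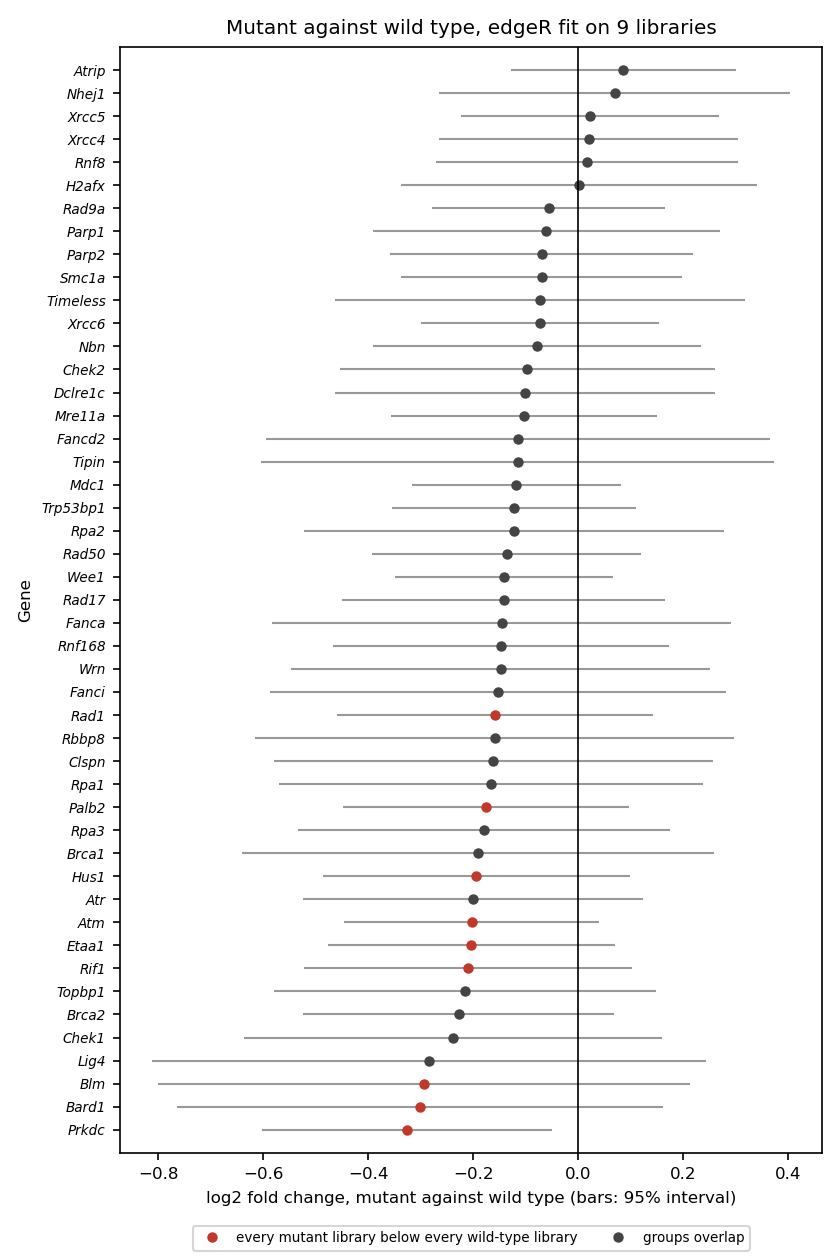
Log2 fold change of mutant against wild type (horizontal axis, with 95% intervals) for each of the 47 genes (vertical axis, sorted). Red points are the 9 genes whose libraries do not overlap between the groups; the interval of Prkdc (-0.60 to -0.05) is the only one that leaves out 0.

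All 12 genes of ATR activation had negative log2 fold changes, from -0.22 to -0.06 with a median of -0.16, and none passed the test. They include the clamp loader gene Rad17, the clamp genes Rad9a, Hus1 and Rad1, the ATR activator genes Topbp1 and Etaa1, the fork protection genes Clspn, Timeless and Tipin, and the genes of RPA, which coats single-stranded DNA. Etaa1, whose product activates ATR through RPA, stood at 59.6, 64.2 and 56.7 CPM in wild type and at 50.6, 53.9, 51.1 and 53.4 CPM in the mutant. Its groups did not overlap (log2 fold change -0.20, SE 0.12), as was the case for Hus1 (-0.19) and Rad1 (-0.16). Tipin had a wide spread within wild type, at 95.8, 191 and 143 CPM, and the mutant libraries, at 116.5 to 146 CPM, lay inside it.

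The 3 checkpoint effector kinase genes were negative as well, and the groups overlapped for each. Chek1, which encodes the kinase activated by ATR, stood at 65.2, 101 and 76.5 CPM in wild type and at 72.2, 68.3, 67.5 and 66.2 CPM in the mutant. The mutant libraries lay within the wild-type range, and the log2 fold change was -0.24 (SE 0.18). Chek2, the kinase gene downstream of ATM, stood at 61.0, 65.7 and 57.0 CPM in wild type and at 53.4, 53.8, 61.8 and 60.01 CPM in the mutant (-0.10, SE 0.16). Wee1, whose product inhibits CDK1, stood at 63.0, 68.9 and 71.4 CPM in wild type and at 63.3, 62.9, 62.4 and 57.3 CPM in the mutant (-0.14, SE 0.09). For Chek2, 2 of the 4 mutant libraries lay below every wild-type library, and for Wee1 3 of the 4 did.

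Of the 7 genes of chromatin signalling at breaks, 5 were negative (median -0.12). H2afx encodes the histone variant that ATM phosphorylates around a break. It stood at 35.4, 50.9 and 47.8 CPM in wild type and at 48.4, 46.9, 41.4 and 42.3 CPM in the mutant, inside the wild-type range, and its log2 fold change was 0.002 (SE 0.15, interval -0.34 to 0.34). The sign of this value changed under 4 alternatives, in which it lay between -0.12 and -0.01. Trp53bp1 stood at 177, 143 and 154 CPM in wild type and at 137, 146, 154 and 144 CPM in the mutant (-0.12, SE 0.10), and 15.04% of its exon bases overlap Tubgcp4 on the opposite strand. Rif1, an effector of 53BP1 that limits the cutting back of ends, stood at 439.5, 467 and 408 CPM in wild type and at 365, 375, 393 and 383 CPM in the mutant. Its groups did not overlap (-0.21, SE 0.14). Mdc1, the scaffold that binds phosphorylated H2AX, Rnf168, a ubiquitin ligase, and Smc1a lay at -0.12, -0.15 and -0.07, and Rnf8 at 0.02.

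All 6 genes of end sensing, resection and unwinding were negative, with a median of -0.14. Mre11a, Rad50 and Nbn, which form the complex that senses ends and activates ATM, lay at -0.10, -0.14 and -0.08. Blm, the helicase gene mutated in Bloom syndrome, stood at 77.2, 105 and 83.6 CPM in wild type and at 72.4, 73.6, 70.3 and 72.6 CPM in the mutant. These groups did not overlap, although the fold change had a large error (-0.29, SE 0.23). The Cre-negative libraries lay on both sides of all others, at 56.6 and 131 CPM. Rbbp8, which starts resection, and Wrn lay at -0.16 and -0.15.

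All 7 BRCA and Fanconi genes were negative, from -0.30 to -0.11 with a median of -0.18, and this was also the role with the largest spread within groups. Brca1 stood at 116.5, 195 and 141 CPM in the wild-type libraries (151 ± 40.1, SD, n = 3) and at 134, 131, 134 and 128.5 CPM in the mutant (132 ± 2.70, SD, n = 4). The mutant libraries lay inside the wild-type range, and the log2 fold change of -0.19 (SE 0.20) became 0.04 with 1 wild-type library left out. Brca2, a mediator of homologous recombination, stood at 128, 173.5 and 146 CPM in wild type and at 131, 133, 128 and 117.5 CPM in the mutant (-0.23, SE 0.13). Bard1 stood at 55.0, 77.9 and 61.5 CPM in wild type and at 54.3, 52.6, 52.1 and 51.4 CPM in the mutant, without overlap (-0.30, SE 0.21). Palb2, the bridge between BRCA1 and BRCA2, also did not overlap (-0.18, SE 0.12). Fanca, Fancd2 and Fanci, genes of crosslink repair, lay at -0.15, -0.11 and -0.15 with overlapping groups.

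The 6 end joining genes were split evenly, with 3 negative and a median of -0.03. Xrcc5 and Xrcc6, which encode the Ku ring that binds ends together with DNA-PKcs, lay at 0.02 and -0.07. Xrcc4, Nhej1 and Dclre1c lay at 0.02, 0.07 and -0.10. Lig4 lay at -0.28 (SE 0.24), and its groups overlapped. Of the polymerases that mark breaks with poly(ADP-ribose), Parp1 stood at 374, 563 and 481 CPM in wild type and at 537, 452, 414 and 411 CPM in the mutant. These values overlapped fully, with a log2 fold change of -0.06 (SE 0.15) that was 0.09 with 1 wild-type library left out. Parp2 lay at -0.07.

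**Figure D5:**
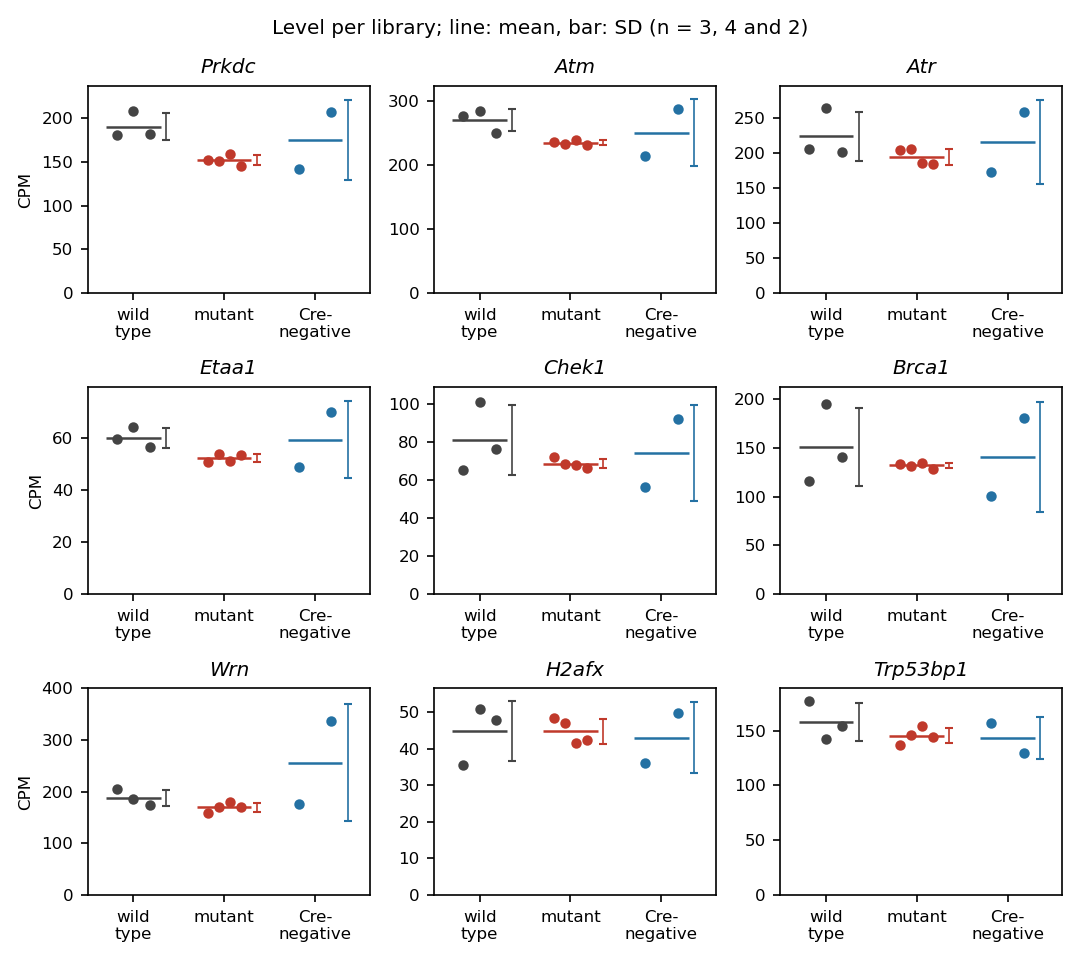
Level in CPM (vertical axis, from 0) of 9 of the genes in each library, by genotype group; points are libraries, lines are means and bars are SDs (n = 3, 4 and 2). For Prkdc, Atm and Etaa1 every mutant point lies below every wild-type point, while for Chek1 and Brca1 the mutant points lie inside the wild-type range.

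Cre-negative libraries were then set against the same wild-type libraries as above, so the values are given side by side and not as a second test. No gene of the 47 passed in edgeR (0% of all genes), and the smallest adjusted p was 0.990. Of the 47, 28 were negative (46.8% of all genes), with a median of -0.04. At an unadjusted p under 0.05, 0 were lower (1.59% of all genes) and 0 were higher (3.64% of all genes). For 0 of the genes both Cre-negative libraries lay below wild type (5.12% of all genes). For Rnf8 both lay above it (6.25% of all genes), at 11.1 and 11.9 CPM against 9.54 to 11.0 CPM. A share of 13.18% of the exon bases of Rnf8 is also annotated to Gm28043 on the same strand.

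The values of this comparison turned on which Cre-negative library was used. The median of the 47 genes was 0.15 without cre_negative_780 and -0.31 without cre_negative_819. Wrn, whose product unwinds recombination and fork structures (ENSMUSG00000031583, chr8:33234384-33385527, minus strand), had the lowest p. It stood at 205, 185 and 175 CPM in wild type and at 176 and 337 CPM in the Cre-negative libraries, so that 1 library lay inside the wild-type range and 1 far above it. Its log2 fold change was 0.44 (SE 0.21, edgeR adjusted p = 0.990). Without cre_negative_780 it was 0.81 with an edgeR adjusted p = 0.00927, in a fit that called 650 of 19301 genes, and without cre_negative_819 it was -0.11. Rad17 likewise stood at 48.5, 49.6 and 42.2 CPM in wild type and at 44.5 and 67.6 CPM in the Cre-negative libraries (0.26, SE 0.17). Dclre1c stood at 31.7, 21.2 and 23.2 CPM in wild type and at 27.2 and 32.1 CPM in the Cre-negative libraries (0.23, SE 0.19). Both genes overlapped between the groups. Rpa1 stood at 212, 372 and 297 CPM in wild type and at 220 and 285 CPM in the Cre-negative libraries (-0.22, SE 0.22), inside the wild-type range. Rpa2 stood at 98.9, 177 and 137.5 CPM in wild type and at 106 and 126 CPM in the Cre-negative libraries (-0.25, SE 0.22), also inside it. Trp53bp1, at 157 and 130 CPM in the Cre-negative libraries, lay at -0.14 (SE 0.13).

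The mutant was also compared with Cre-negative, the group labelled cKI without Cre. Whether its genotype of Dnmt3a+/- means an unrecombined conditional allele or a null allele is not given in the sources used here. These values use the same mutant libraries as above. No gene of the 47 passed in edgeR (0% of all genes), and the smallest adjusted p was 0.8215. Of the 47, 38 were negative (55.8% of all genes), with a median of -0.10. At an unadjusted p under 0.05, Wrn and Rad17 were lower (2 of 47, against 3.71% of all genes) and 0 were higher (1.55% of all genes). For Lig4 and Rad17 every mutant library lay below both Cre-negative libraries (2 of 47, against 7.27% of all genes), and for 0 genes every mutant library lay above them (5.09% of all genes).

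Wrn stood at 159, 170, 180.5 and 171 CPM in the mutant, around the 176 CPM of cre_negative_780 and far below the 337 CPM of cre_negative_819. Its log2 fold change was -0.59 (SE 0.20, edgeR adjusted p = 0.8215), and -0.02 without cre_negative_819. Rad17 stood at 39.7, 43.2, 43.6 and 43.0 CPM in the mutant, just below the 44.5 CPM of cre_negative_780, with a log2 fold change of -0.40 (SE 0.16) that was -0.04 without cre_negative_819. Lig4 stood at 3.20, 3.72, 5.23 and 5.17 CPM in the mutant and at 6.02 and 6.71 CPM in the Cre-negative libraries (-0.56, SE 0.27). Its wild-type libraries lay between 4.28 and 6.83 CPM and overlapped both groups. Dclre1c stood at 20.5, 21.6, 27.5 and 24.96 CPM in the mutant, overlapping the Cre-negative libraries (-0.33, SE 0.18). For Rif1 (-0.24, SE 0.16) and Blm (-0.38, SE 0.26) the sign changed without cre_negative_819, to 0.15 and 0.38.

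With cre_negative_780 left out, 6 of the 47 genes passed between mutant and Cre-negative, namely Prkdc, Rad17, Rif1, Blm, Wrn and Bard1, and with cre_negative_819 left out 0 passed. Over all genes, the same fits called 1835 of 19301 and 9 of 19497. The median of the 47 was -0.28 in the first case and 0.15 in the second. In both cases the group rests on 1 library, whose spread is taken from that of the other groups. Library cre_negative_819 was also the one with the high erythroid markers, whose summed level was 2351 CPM there and 150 to 340 CPM in the other 8 libraries. Their part in the values of Wrn and the other genes was not tested.

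The wider network was described with the same test. Of 58 other damage response genes, 39 were negative between mutant and wild type, with a median of -0.08, and none passed. Polm, a polymerase gene of end joining (0.43, SE 0.29), and Fance, a Fanconi core gene (0.25, SE 0.18), were among those with the lowest p. Polm was low in every library, at 0.823 to 2.785 CPM, which limits its values in all comparisons. Between Cre-negative and wild type, 37 of the 58 were negative (median -0.04), and the lowest p were those of Polm (1.26, SE 0.34), Rmi2 (-0.45, SE 0.22) and Fance (0.43, SE 0.21). Between mutant and Cre-negative, 30 were negative (median -0.01), led by Polm (-0.83, SE 0.31), the polymerase theta gene Polq (-0.60, SE 0.29) and the nuclease scaffold gene Slx4 (-0.35, SE 0.17).

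Of the 30 genes of the p53 list, 15 were negative between mutant and wild type, with a median of 0.004, and none passed. Fas, a death receptor gene (0.70, SE 0.37), Pmaip1, which encodes the BH3 protein NOXA (-0.67, SE 0.47), and Zmat3 (-0.23, SE 0.18) had the lowest p. Fas (0.64 to 2.64 CPM) and Pmaip1 (0.44 to 2.75 CPM) were low in every library. The cell cycle inhibitor gene Cdkn1a was low in all groups, at 2.09, 3.33 and 2.46 CPM in wild type and 1.78, 3.18, 2.84 and 2.38 CPM in the mutant. Between mutant and Cre-negative, 20 of the 30 were negative (median -0.09), led by Zmat3 (-0.77, SE 0.19) and the stress genes Gadd45a (-0.70, SE 0.24) and Btg2 (-0.43, SE 0.18). Between Cre-negative and wild type, 19 of the 30 were positive (median 0.08), led by Gadd45a (0.73, SE 0.25), Zmat3 (0.54, SE 0.21) and Sesn2 (0.38, SE 0.17). None of these passed the edgeR test.

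Of the S phase genes, 33 of 34 were negative between mutant and wild type (median -0.16), and of the G2 and M phase genes 25 of 25 (median -0.13), none of which passed. These medians lie beside the -0.14 of the 47 damage sensing genes. Tyms, Rrm2 and Ccne2 had the lowest p among the S phase genes, at -0.28 (SE 0.19), -0.31 (SE 0.22) and -0.30 (SE 0.21). Cenpf, Mki67 and Bub1 had the lowest p among the G2 and M phase genes, at -0.20 (SE 0.13), -0.25 (SE 0.20) and -0.28 (SE 0.23). Against wild type, the Cre-negative group had 26 of 34 S phase genes negative (median -0.14) and 10 of 25 G2 and M phase genes negative (median 0.04). Between mutant and Cre-negative, the counts were 17 of 34 (median -0.01) and 21 of 25 (median -0.15).

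Markers of B cells, neutrophils, and T and NK cells were also measured, and none passed the test in any of the 3 comparisons. Between mutant and wild type, 12 of 12 B cell markers (median 0.84) and 11 of 11 neutrophil markers (median 1.44) had positive log2 fold changes. Between Cre-negative and wild type the counts were again 12 of 12 (median 0.65) and 11 of 11 (median 1.34), and between mutant and Cre-negative the medians were 0.03 and 0.27. Their summed levels were low beside those of the LSK markers. The B cell markers summed to 50.2 to 70.7 CPM in wild type, 64.2 to 94.6 in the mutant and 51.9 to 104 in Cre-negative libraries. The neutrophil markers summed to 53.9 to 170 CPM in wild type, 138 to 423 in the mutant and 41.95 to 336 in Cre-negative libraries. The LSK markers summed to 3130 to 3156 CPM in wild type, 2793 to 3345 in the mutant, and 3382 and 2207 in cre_negative_780 and cre_negative_819. The neutrophil sum came mostly from genes such as S100a8 (15.7 to 139 CPM) and S100a9 (12.8 to 153 CPM), while Ly6g did not exceed 0.905 CPM. The 11 T and NK cell markers summed to 112 to 147.5 CPM in wild type, 109 to 149 in the mutant and 93.8 to 149 in Cre-negative libraries. Nkg7 (71.1 to 109.5 CPM) and Lck (13.4 to 39.0 CPM) made up most of that sum, and Cd3e, the defining T cell marker, did not exceed 0.110 CPM and had 0 counts in cre_negative_780. Of the 10 T and NK cell markers tested, 8 were positive between mutant and wild type (median 0.32). Other marker lists were mixed there. Among erythroid markers 9 of 12 were negative (median -0.20), and among monocyte and macrophage markers 4 of 10 (median 0.56). Of the mast cell and basophil markers tested, 2 of 5 were negative (median 0.36), and of the stromal and endothelial markers 4 of 7 (median -0.04). The part of these cells in the values of the 47 genes was not tested.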

How the data were processed

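Stranded libraries were made from ribosome-depleted total RNA, per the labels. The submitters' processing notes name STAR, HTSeq 0.5.3p3, DESeq2 and the build mm10 (GRCm38). Strand use in counting is not given in the sources used here, which leaves genes that share exon bases on opposite strands uncertain. The authors deposited whole-number counts per Ensembl gene. A second table, of values on another scale, was not used here. The 5 rows that name no gene (40.5% to 47.3% of reads, of which reads without a unique alignment were 21.6% to 28.3% of all) were left out. Symbols and positions came from GENCODE M21 on GRCm38, which matched 37693 identifiers.

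Groups came from the sample titles. Libraries within a group differed beyond sampling noise (lowest chi-square/df 14.57), so none was merged. The genes kept by filterByExpr numbered 18576. They were scaled by TMM and tested two-sided with edgeR 4.0.16 (quasi-likelihood, 9 libraries, 3 group means). Adjustment was by Benjamini-Hochberg over every gene tested, with a threshold of 0.05. Standard errors were obtained from the log2 fold change and its F statistic, and SDs within groups are on log2 values. The fit was also tested on simulated data with known fold changes. These were larger than any found for the 47 genes between mutant and wild type. The simulation therefore cannot say whether changes as small as those would be called.

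The 47 genes, the other lists and the tests were chosen with earlier results of these data known. Values in every library were planned for the 6 genes with the lowest p per comparison and for Atm, Atr, Prkdc, Chek1, Chek2, H2afx, Trp53bp1, Brca1, Brca2 and Parp1. Up to 3 genes of each other list were named per comparison. Some results that this rule would name are not reported here. Library values of Bard1, Tipin, Rnf8 and Cdkn1a were added after they were seen. The alternatives were scaling by RLE or upper quartile, DESeq2 1.42.0, limma 3.58.1 (voom with quality weights), no filter, a filter of 1 CPM in 4 libraries, covariates for Y-linked transcripts or for the S phase list, a fit of the compared groups alone, and omission of each library. R was 4.3.3.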

Additional observations from a re-analysis of the deposited data

Results flagged for a closer look

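Within the 4 mutant libraries, the level of 2 of the 47 genes had 1 library far from the rest, by Dixon's test at its 95% critical value. Rad17 stood at 39.69 CPM in mutant_824 and at 43.05 to 43.62 CPM in the other mutant libraries. Wee1 stood at 57.26 CPM in mutant_830 and at 62.42 to 63.3 CPM in the other mutant libraries. Chance alone marks about 1 in 20 such groups, and 47 were examined. Both gaps are smaller than the range of the same gene in the wild-type group.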

How the results depend on the processing

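Of 612 values recomputed under alternatives, 586 kept their direction and their side of the threshold or moved by less than the spread between libraries. Between mutant and wild type, 0 of the 47 genes passed under any of the 18 alternatives. Over all genes, edgeR called 0 in each comparison, with 589, 972 and 978 at an unadjusted p under 0.05 (mutant against wild type, Cre-negative against wild type, mutant against Cre-negative). DESeq2 called 36, 59 and 21, and limma-voom 13, 0 and 0, none of them among the 47. For mutant against wild type, H2afx was -0.0985 with limma-voom and ranged from -0.1167 to 0.111 with a library left out. Parp1 was 0.03 with the S phase covariate and reached 0.0895 with 1 wild-type library left out. Brca1 ranged from -0.3202 to 0.0436, the latter with 1 wild-type library left out. With each library left out, the median of the 47 ranged from -0.18 to -0.02 for mutant against wild type, from -0.3139 to 0.1511 for Cre-negative against wild type and from -0.277 to 0.1467 for mutant against Cre-negative. In both Cre-negative comparisons the ends came from leaving out a Cre-negative library, and the genes called among the 47 then numbered 0 to 1 and 0 to 6. Over all genes, 650 and 1835 were called without cre_negative_780, and 62 and 9 without cre_negative_819. Wrn ranged from -0.1133 to 0.8069 and Rad17 from -0.0849 to 0.4997 against wild type, and between mutant and Cre-negative Rif1 ranged from -0.4845 to 0.1467 and Blm from -0.8159 to 0.3804. The cause of these changes was not tested. No paired analysis was possible because the library numbers differ between the groups. At an unadjusted p under 0.05, 7 of the 47 were lower in the mutant than in wild type with limma-voom and with the compared groups alone, and 6 with 1 Cre-negative library left out (whichever it was), against 1 in edgeR on all 9. Over all genes and both directions the counts were 2377 of 18576, 1268 of 17708, and 1332 and 1375, against 589. Every gene had at least 160 counts in every library. Among the 47, intervals at 95% for mutant against wild type ran from -0.32 to 0.08 (Mdc1, the narrowest) to -0.81 to 0.24 (Lig4, the widest).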
